A study of Mus musculus with 6 samples.

Results

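Immediate early genes are transcribed within minutes of a stimulus, and many are also induced while tissue is taken apart into single cells. The set described here holds 10 of the 31815 gene rows measured, taken by symbol: Fos, Fosb, Jun, Junb, Egr1, Atf3, Ier2, Btg2, Gadd45b and Nr4a1. No measured value is part of that rule. Poly(A) RNA was sequenced from GFP+ cells of mouse kidney sorted into tdT+GFP+ cells (3 libraries) and tdT-GFP+ cells (3 libraries), so that cells with recent activity of the Wnt reporter gene Axin2 could be set against other GFP+ cells, which the study calls the myofibroblast population. Both groups came from male mice, 9 to 12 weeks old, of the genotype Axin2CreERT2/+:R26RtdT/+:Acta2-GFP, that had undergone bilateral ischemia reperfusion injury. Tamoxifen was given on days 2 and 4 after injury and cells were sorted on day 6. By the labels, kidneys 1, 2 and 3 each gave 1 library of either group. The counts do not settle whether a number marks the same kidney in both groups.

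In this model the Axin2 promoter drives the tamoxifen-dependent recombinase that switches on tdTomato, and GFP is driven by Acta2, the smooth muscle actin gene, which vascular smooth muscle also uses. A tdT-GFP+ cell may be one in which recombination did not take place. All 6 libraries carry the injury, the tamoxifen, the 3 alleles and the same dissociation of cortex and outer medulla, on ice with a cold-active protease, DNase and Liberase TL. Neither uninjured kidney nor undissociated tissue was among the samples, so RNA present in the kidney and RNA made during dissociation and sorting cannot be told apart. In bulk libraries, fewer expressing cells and less RNA per cell cannot be told apart either.

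Immediate early genes need no new protein for their induction. Growth factors, calcium and stress act through MAP kinases on ternary complex factors bound with SRF, and on CREB-family factors bound at cyclic AMP response elements (CREs). Fos and Jun proteins then pair through leucine zippers into AP-1. The transcripts are short-lived, and phosphatases and RNA-binding proteins induced alongside them close the response. Cold-active proteases are used in place of enzymes that work at body temperature to limit this induction.

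Promoters were read from RefSeq on GRCm38.p6 for 8 of the 10 genes, all but Egr1 and Ier2. Printed are the 250 bases before the start of 4 of them: Fos and Nr4a1, which had the same highest and the same lowest library, and Btg2 and Atf3, which had the most positive and the most negative fold change between the groups. Each runs 5' to 3' on the strand of its gene, and capitals mark the CRE core TGACG, read on the opposite strand as CGTCA. Fos is at chr12:85473640-85473889 on the plus strand, Nr4a1 at chr15:101266596-101266845 on the plus strand, Btg2 at chr1:134079156-134079405 on the minus strand and Atf3 at chr1:191183334-191183583 on the minus strand.
Fos: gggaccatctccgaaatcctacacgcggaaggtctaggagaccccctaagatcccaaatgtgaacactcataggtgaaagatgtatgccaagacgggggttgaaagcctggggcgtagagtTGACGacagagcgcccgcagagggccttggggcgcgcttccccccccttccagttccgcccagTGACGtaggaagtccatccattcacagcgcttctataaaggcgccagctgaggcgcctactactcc
Nr4a1: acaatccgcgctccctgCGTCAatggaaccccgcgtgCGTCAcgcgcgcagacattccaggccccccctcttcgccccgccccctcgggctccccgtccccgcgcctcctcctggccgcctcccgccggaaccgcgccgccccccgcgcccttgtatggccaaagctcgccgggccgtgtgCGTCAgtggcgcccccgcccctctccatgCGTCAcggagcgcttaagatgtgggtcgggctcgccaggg
Btg2: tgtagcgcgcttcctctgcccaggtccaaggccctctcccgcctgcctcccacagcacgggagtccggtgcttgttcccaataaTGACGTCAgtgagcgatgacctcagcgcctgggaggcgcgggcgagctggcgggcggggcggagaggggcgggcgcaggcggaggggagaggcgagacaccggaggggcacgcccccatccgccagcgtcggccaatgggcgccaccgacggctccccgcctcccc
Atf3: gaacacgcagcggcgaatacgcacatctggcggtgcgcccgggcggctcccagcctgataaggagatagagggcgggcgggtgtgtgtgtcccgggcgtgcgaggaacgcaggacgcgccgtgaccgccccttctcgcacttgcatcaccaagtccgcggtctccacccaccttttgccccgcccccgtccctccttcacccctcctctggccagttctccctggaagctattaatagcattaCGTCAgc
The Fos window held CRE cores that began 129 and 66 bases before the start, and a TATAA at 33 bases. Nr4a1, which encodes an orphan nuclear receptor, had 4 cores, at 233, 213, 69 and 40 bases before its start. In Btg2 a core on either strand overlaps within the full palindrome TGACGTCA at 166 bases, and in Atf3 a single core began 7 bases before the start. Among all 8 windows, 6 held a core on either strand, a count that includes the one inside the palindrome. Of 32851 RefSeq promoter windows of this length, 17.8% held one. The 8 windows were 58.4% (Fos) to 74.4% (Nr4a1) G and C, and the comparison was not matched for base composition.

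The full CRE TGACGTCA was in 1 of the 8 windows and in 1.55% of all promoter windows. The AP-1 site TGANTCA was in 0 of 8 against 6.75% of all, and the CArG box, the binding sequence of SRF, in 0 of 8 against 1.47%. TATAA was found in Fos and Gadd45b, against 22.8% of all windows. All motifs were searched on both strands. A match describes these letters only. The search did not cover Egr1, Ier2, bases further upstream or variant spellings of a site, so a count of 0 does not mean that the genes lack it. The RefSeq starts of Atf3, Nr4a1, Fosb and Gadd45b lie inside the spans that GENCODE annotates for these genes. Those of Fosb and Gadd45b lie near the edge.

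All 10 genes were abundant in every library, and none passed the test between tdT+GFP+ and tdT-GFP+ cells after adjustment over all genes. Their summed level was 15340, 12129 and 16131 CPM in the tdT+GFP+ libraries, against 12908, 19766 and 12776 CPM in the tdT-GFP+ libraries. The highest and the lowest sum both fell on kidney 2, and in the highest library these 10 genes took 2.03% of all gene counts. Levels were also set per transcript length, as TPM (transcript abundance per length, scaled to one total in each library) computed from the counts and merged exon lengths, over all 6 libraries and 15453 tested genes with a length. On that scale Fos averaged 4749 TPM and ranked 21. Gadd45b, the lowest of the 10, averaged 341 TPM and ranked 381, so that all 10 lay in the top 2.47% of genes.

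Per length, the genes followed the order Fos, Junb (2646 TPM), Jun (2432), Egr1 (2248), Nr4a1 (1407), Fosb (1260), Btg2 (1009), Ier2 (870), Atf3 (512) and Gadd45b (341). Fos stood clear of the next gene, with merged exon lengths, since its lowest library (3901 TPM) was above the highest of Junb (3670 TPM). The ranges of every other pair of neighbours in that order overlapped over the libraries. Compared within the same library, however, the order held in every library for Fos over Junb, Junb over Jun and Jun over Egr1. It also held for Egr1 over Nr4a1, Btg2 over Ier2 and Atf3 over Gadd45b. For Nr4a1 and Fosb, Fosb and Btg2, and Ier2 and Atf3 it changed between libraries. With the length of the longest transcript instead, Fosb and Nr4a1 changed places. The range of Fos, from 3421 TPM in its lowest library, then overlapped that of Junb, up to 3646 TPM in its highest.

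**Figure D1:**
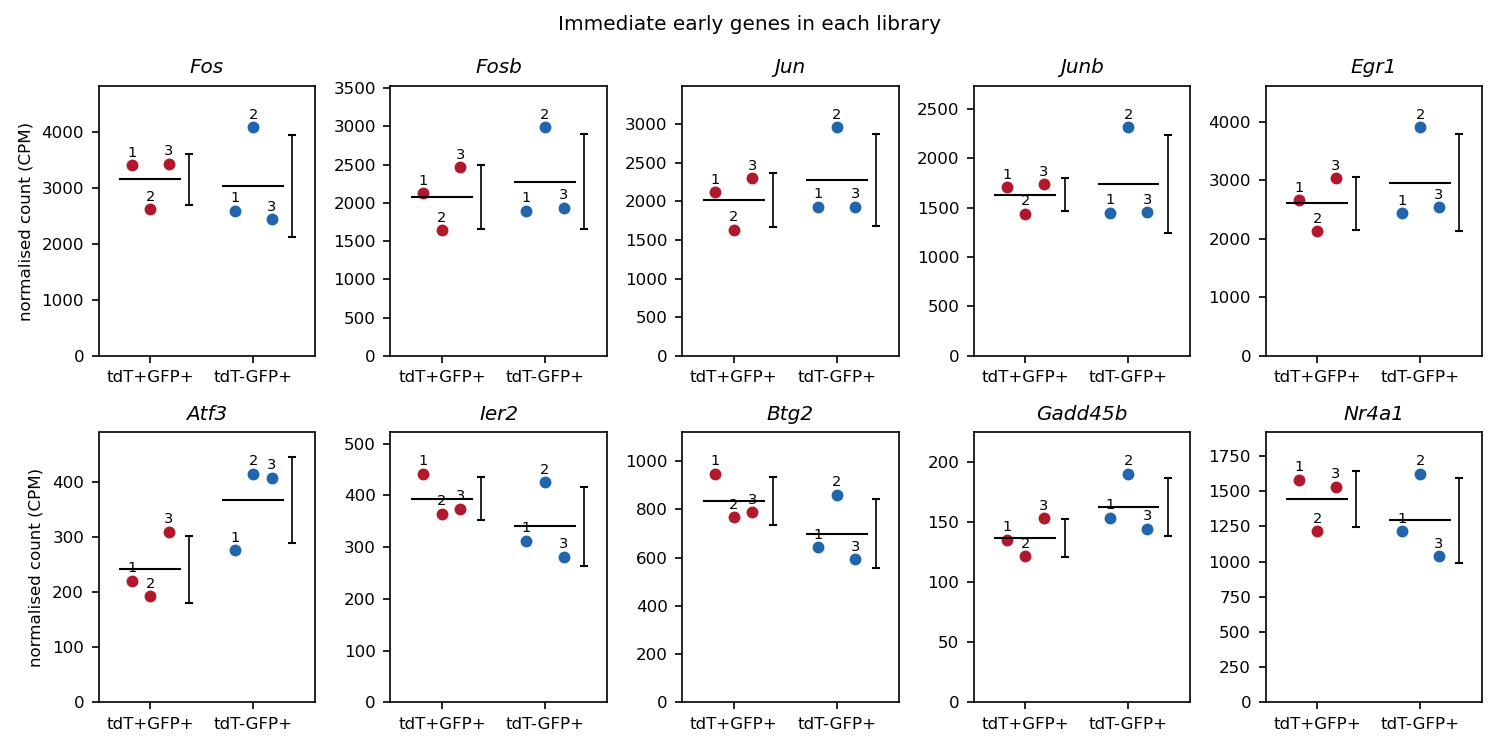
Normalised counts (CPM, linear axes from 0) of the 10 immediate early genes in each library, tdT+GFP+ cells to the left and tdT-GFP+ cells to the right. Points carry their kidney number and bars are group means with SD (n = 3 each), and the groups overlap in all 10 panels.

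The AP-1 subunit genes Fos, Fosb, Jun and Junb differed between the groups by less than the spread of the replicates. Fos (ENSMUSG00000021250.13, chr12:85473890-85477273, plus strand), which encodes the c-Fos partner of Jun proteins, had 3401, 2619 and 3427 CPM (normalised read counts, scaled to the library size) in tdT+GFP+ libraries 1, 2 and 3, against 2589, 4079 and 2439 CPM in tdT-GFP+ libraries 1, 2 and 3. The tdT-GFP+ library of kidney 2 was above all others, and the other tdT-GFP+ libraries were below all 3 tdT+GFP+ ones. The means were 3149 ± 459 and 3036 ± 906 CPM (SD, n = 3 each). Its log2 fold change, tdT+GFP+ over tdT-GFP+, stood at 0.05 (SE 0.23, 95% interval -0.50 to 0.61, edgeR adjusted p = 0.939).

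Fosb (ENSMUSG00000003545.3, chr7:19302696-19310051, minus strand), a close relative of Fos, had 2125, 1642 and 2468 CPM in tdT+GFP+ and 1899, 2988 and 1937 CPM in tdT-GFP+ libraries. The kidney 2 libraries were its highest, in tdT-GFP+ cells, and its lowest, in tdT+GFP+ cells. Jun (ENSMUSG00000052684.4, chr4:95049034-95052222, minus strand), the c-Jun subunit that pairs with itself or with Fos proteins, had 2116, 1632 and 2300 CPM in tdT+GFP+ and 1932, 2960 and 1931 CPM in tdT-GFP+ libraries. Junb (ENSMUSG00000052837.6, chr8:84974484-84978718, minus strand), a Jun relative with weaker transactivation, had 1709, 1440 and 1739 CPM in tdT+GFP+ and 1450, 2313 and 1454 CPM in tdT-GFP+ libraries. Both repeated the extremes of Fosb in kidney 2. The log2 fold changes of these 3 genes were -0.13 (SE 0.23, 95% interval -0.69 to 0.43), -0.17 (SE 0.22, -0.70 to 0.35) and -0.09 (SE 0.21, -0.60 to 0.41), with edgeR adjusted p of 0.831, 0.751 and 0.866.

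Atf3 (ENSMUSG00000026628.13, chr1:191170296-191218039, minus strand), a stress-induced bZIP factor that can repress its targets, had 221, 193 and 310 CPM in tdT+GFP+ and 276, 415 and 408 CPM in tdT-GFP+ libraries. Library 3 of tdT+GFP+ cells lay above library 1 of tdT-GFP+ cells, so the groups overlapped, yet within each kidney the tdT+GFP+ library was the lower one. The means were 241 ± 61.1 and 366 ± 78.0 CPM (SD, n = 3 each), a log2 fold change of -0.60 (SE 0.23, 95% interval -1.15 to -0.05, unadjusted p = 0.0361). It did not pass the threshold over all genes, with an edgeR adjusted p of 0.447 and a DESeq2 adjusted p of 0.197, or 0.123 with the kidney in the model.

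Endothelial and mural markers were also lower on average in tdT+GFP+ cells, but within the groups their sums stood in another order of libraries than Atf3. Sox17, Vwf and Cldn5, endothelial markers named after their values were seen, shared the order of Atf3. Of 18 endothelial markers, 18 had negative log2 fold changes. Their summed level was 1582, 2300 and 1850 CPM in tdT+GFP+ and 3509, 2671 and 4406 CPM in tdT-GFP+ libraries. The 12 mural markers summed to 799, 1077 and 999 CPM in tdT+GFP+ and 1594, 1109 and 2007 CPM in tdT-GFP+ libraries, with negative values for 12 of 12. Both sums were highest of the tdT+GFP+ libraries in library 2, where Atf3 was lowest. Of the tdT-GFP+ libraries they were lowest in library 2, where Atf3 was highest. In edgeR 0 of either list passed. At an unadjusted p under 0.05, 13 endothelial and 7 mural markers were lower, against 6.97% of all genes tested. DESeq2 called 12 endothelial and 2 mural markers lower, or 8 and 2 with the kidney in the model. Over all its genes it called 1.87% lower, or 1.64% with the kidney. The part of endothelial and mural cells in the Atf3 values was not tested.

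Egr1 (ENSMUSG00000038418.7), a zinc-finger factor induced by mitogens and injury, had 2661, 2132 and 3039 CPM in tdT+GFP+ and 2436, 3910 and 2546 CPM in tdT-GFP+ libraries. Its extremes were again those of kidney 2, and its log2 fold change was -0.18 (SE 0.23, 95% interval -0.73 to 0.36, edgeR adjusted p = 0.750). Nr4a1 (ENSMUSG00000023034.7, chr15:101254269-101274795, plus strand) had 1580, 1218 and 1532 CPM in tdT+GFP+ and 1216, 1624 and 1039 CPM in tdT-GFP+ libraries. Its lowest library was the tdT-GFP+ library of kidney 3, as for Fos, and its log2 fold change was 0.16 (SE 0.19, -0.31 to 0.62, adjusted p = 0.744).

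Ier2 (ENSMUSG00000053560.5, chr8:84661331-84662852, minus strand), a small nuclear protein induced by growth factors, had 442, 365 and 374 CPM in tdT+GFP+ and 312, 426 and 282 CPM in tdT-GFP+ libraries. Btg2 (ENSMUSG00000020423.6, chr1:134075170-134079120, minus strand), an antiproliferative gene that is also a p53 target, had 948, 767 and 788 CPM in tdT+GFP+ and 643, 861 and 595 CPM in tdT-GFP+ libraries. For both, the highest library was the tdT+GFP+ library of kidney 1, and all 6 libraries stood in the same order. The log2 fold changes were 0.21 (SE 0.17, 95% interval -0.20 to 0.62, edgeR adjusted p = 0.621) for Ier2 and 0.25 (SE 0.17, -0.15 to 0.66, adjusted p = 0.563) for Btg2.

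Gadd45b (ENSMUSG00000015312.9, chr10:80930073-80932204, plus strand), a stress sensor that acts on MAP kinase signalling, had 136, 122 and 154 CPM in tdT+GFP+ and 154, 190 and 145 CPM in tdT-GFP+ libraries. The lowest library was again that of tdT+GFP+ cells from kidney 2. Its log2 fold change was -0.25 (SE 0.13, 95% interval -0.57 to 0.07, edgeR adjusted p = 0.508), and its smallest count in any library was 3779 reads.

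Across the set, 0 of 10 genes passed the adjusted p threshold of 0.05 in edgeR's quasi-likelihood test, against 0% of the 15462 genes tested. At an unadjusted p under 0.05 the count was 1 of 10 (Atf3), against 10.7% of all genes (3.71% higher and 6.97% lower in tdT+GFP+ cells). DESeq2 called 0 of the 10, against 0.125% of its genes higher and 1.87% lower, and with the kidney in the model 0 of 10, against 0.257% and 1.64%. The groups did not overlap for 0 of 10, against 15.8% of all genes (7.23% higher and 8.6% lower in tdT+GFP+ cells). The median log2 fold change of the 10 was -0.11 with 4 positive and 6 negative, and over all genes tested it was 0.00 with 7718 positive and 7744 negative.

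**Figure D2:**
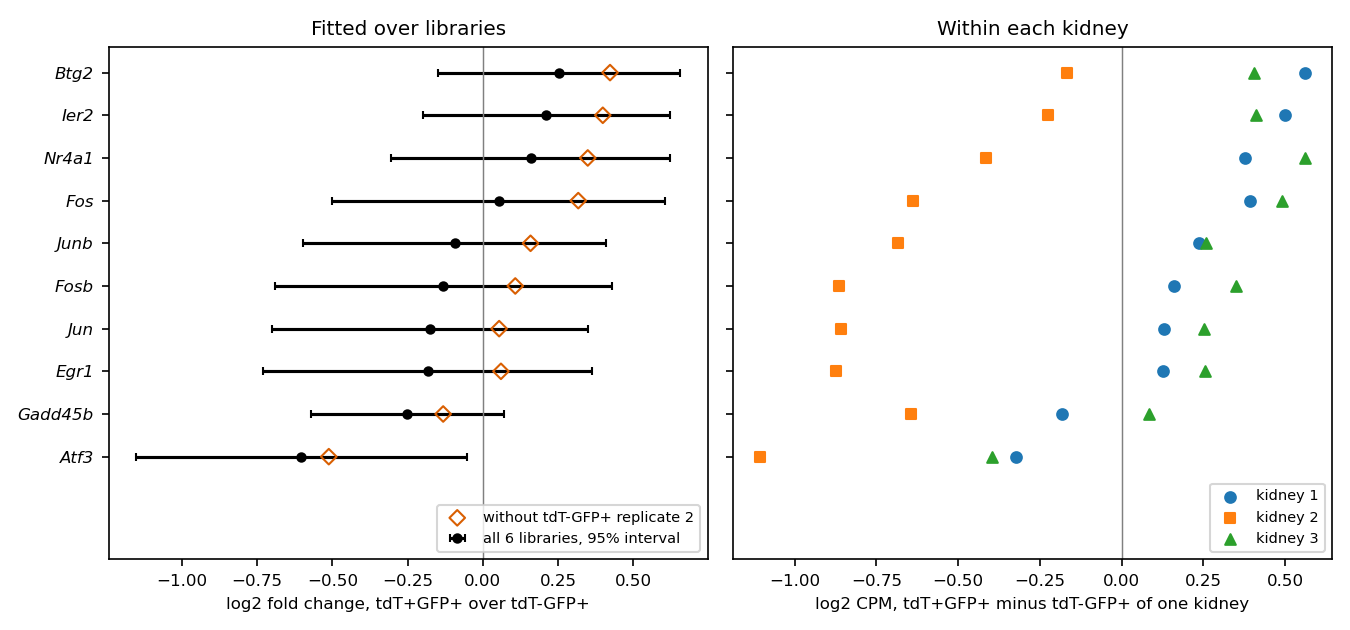
Log2 fold changes of the 10 genes, tdT+GFP+ over tdT-GFP+: to the left fitted over all 6 libraries with 95% intervals (filled points) and without tdT-GFP+ replicate 2 (open diamonds), to the right the difference in log2 CPM within each kidney. Kidney 2 lies below 0 for all 10 genes, while kidneys 1 and 3 lie above 0 for most, and Atf3 is below 0 in all 3.

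With libraries matched by the kidney number in the labels, the direction of the difference was not the same in all 3 kidneys. In kidney 2 the tdT+GFP+ library was the lower one for all 10 genes, with log2 CPM differences of -0.17 (Btg2) to -1.11 (Atf3). In kidney 1 the difference was positive for 8 genes, with Btg2 at 0.56 and Ier2 at 0.50, and negative for Atf3 (-0.32) and Gadd45b (-0.18). In kidney 3 it was positive for 9, with Nr4a1 at 0.56 and Fos at 0.49, and negative for Atf3 (-0.40). The match between the groups rests on the labels alone. Over all genes tested, the deviations from the group means correlated at 0.04, -0.58 and -0.30 for libraries with the number 1, 2 and 3, while tdT+GFP+ library 2 with tdT-GFP+ library 3 was at 0.45 and tdT+GFP+ library 3 with tdT-GFP+ library 2 at 0.44. Whether the numbers mark the same kidney in both groups cannot be told from the counts.

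Of the 10 genes, 8 were highest in the tdT-GFP+ library of kidney 2, where 22.5% of all genes tested had their highest library. The remaining 2, Ier2 and Btg2, were highest in the tdT+GFP+ library of kidney 1. The lowest library was that of tdT+GFP+ cells from kidney 2 for 6 genes and that of tdT-GFP+ cells from kidney 3 for 4. The highest library exceeded the lowest by 1.56-fold for Nr4a1 and Gadd45b and by up to 2.15-fold for Atf3. The median SD of log2 CPM within groups was 0.302 for these genes and 0.180 for all genes tested.

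Several of the signs depended on single libraries. Without tdT-GFP+ replicate 2 the median log2 fold change was 0.13, with 8 positive and 2 negative: Fosb (0.11), Jun (0.05), Junb (0.16) and Egr1 (0.06) turned positive, and the other 6 genes kept their sign, among them Fos at 0.32 and Atf3 at -0.51. Fosb also turned without tdT+GFP+ replicate 2 (0.01), and Fos, which lay near 0 in all 6 libraries together, was slightly negative without replicate 1 or 3 of either group, at -0.08 without tdT-GFP+ replicate 3. No gene of the set passed the threshold in any of these fits.

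The 16 macrophage markers summed to 1472, 2066 and 574 CPM in tdT+GFP+ and 730, 425 and 1217 CPM in tdT-GFP+ libraries. The library with the highest immediate early sum thus had the lowest macrophage sum, and the one with the lowest immediate early sum had the highest. The 12 fibroblast and myofibroblast markers summed to 70220 to 77800 CPM in tdT+GFP+ and 55230 to 81260 CPM in tdT-GFP+ libraries. The 15 proximal tubule markers summed to 640, 829 and 667 CPM in tdT+GFP+ and 456, 1394 and 1103 CPM in tdT-GFP+ libraries, but Aqp1, a water channel singled out after its values were seen, alone gave 1070 CPM of the 1394. Without Aqp1, the other 14 summed to 424, 772 and 225 CPM in tdT+GFP+ and 363, 324 and 930 CPM in tdT-GFP+ libraries. Of the 15 tubule markers 1 (Aqp1) was highest in the tdT-GFP+ library of kidney 2 and 8 in that of kidney 3. Of the 18 endothelial markers it was 3 (Sox17, Vwf and Cldn5) and 14. Aqp1, Sox17, Vwf and Cldn5 were also lowest in the tdT+GFP+ library of kidney 2. Their Pearson's r with the mean of the immediate early set was 0.965, 0.793, 0.894 and 0.727. The median r was -0.326 over the 18 endothelial markers and -0.673 over the 15 tubule markers. Acta2, whose promoter drives the sorted GFP, had 1577, 1416 and 1747 CPM in tdT+GFP+ and 1589, 944 and 943 CPM in tdT-GFP+ libraries. The sort on GFP fixed its presence in advance, so these values do not identify the cell type. Axin2, the gene behind the tdT label, had a log2 fold change of 0.12 (SE 0.38, edgeR adjusted p = 0.907). The red cell gene Hbb-bs was at 0.244, 0.580 and 7.65 CPM in tdT+GFP+ and 7.74, 4.78 and 7.34 CPM in tdT-GFP+ libraries. No marker was at 0 in all libraries, and the part of these cells in the immediate early values was not tested.

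Of the 10 genes, Fosb, Jun, Junb and Egr1 lay closest to the mean of the others over the 6 libraries. Pearson's r of centred log2 CPM with the mean of the other 9 genes was 0.971 to 0.979 for these 4, 0.934 for Fos, 0.791 for Gadd45b and 0.778 for Nr4a1. It was 0.591 for Ier2, 0.520 for Btg2 and 0.364 for Atf3. These are descriptions over 6 libraries that, by the labels, share 3 kidneys. Among 11356 other genes averaging at least 5 CPM, the libraries' pattern was most like the mean of the set for Tmsb10 (r = 0.998), Med6 (0.996), Zfp13 (0.994), Zfas1 (0.993) and Ssbp4 (0.991). With 6 libraries high values are common, and 8.66% of all genes tested had an r over 0.8. Zfas1 is an antisense RNA, and its reads and those of the overlapping gene cannot be told apart unless counting used the strand.

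**Figure D3:**
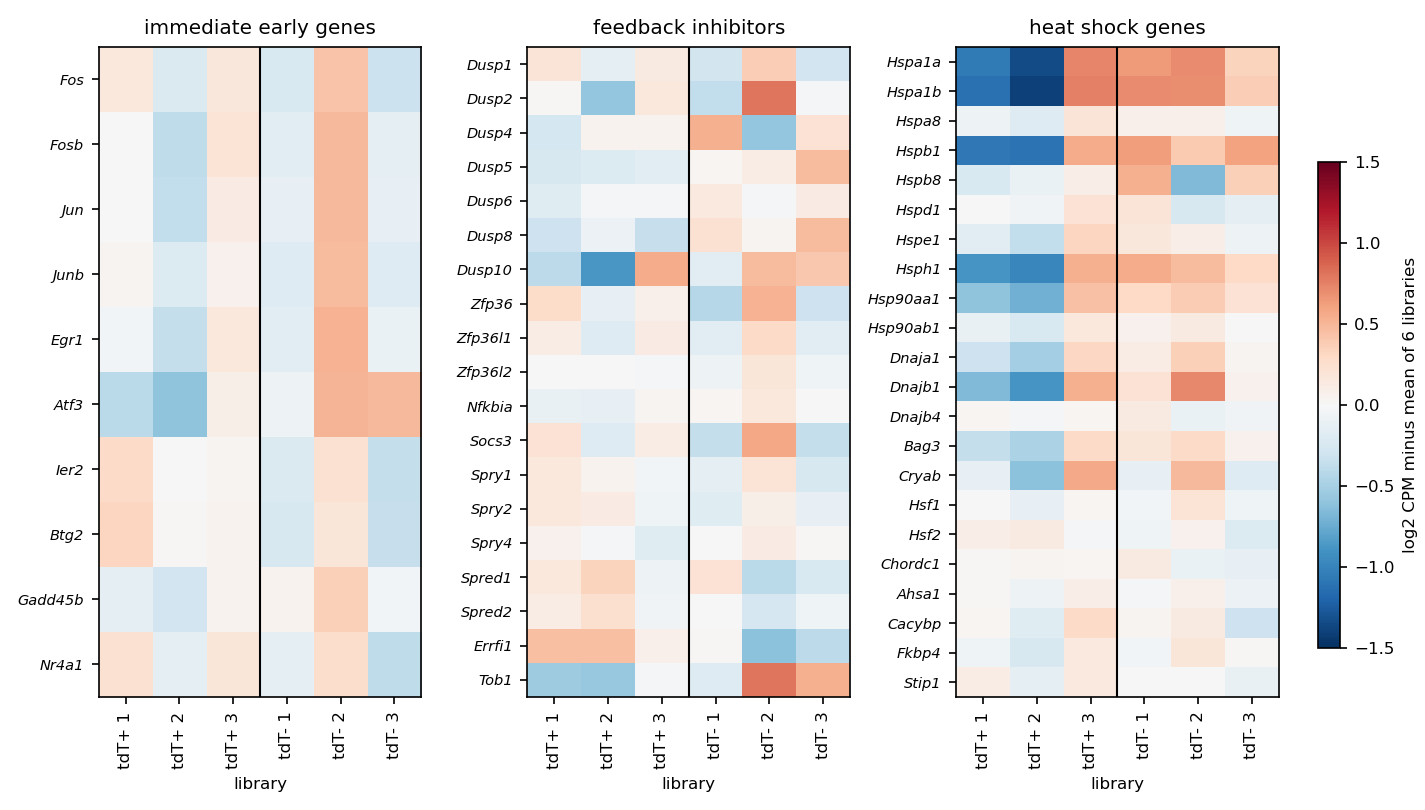
Log2 CPM minus the mean of the 6 libraries, by library (tdT+GFP+ 1 to 3, then tdT-GFP+ 1 to 3), for the 10 immediate early genes for feedback inhibitors and for heat shock genes. Of the 10 immediate early genes, 8 are highest in the tdT-GFP+ library of kidney 2, while Hspa1a, Hspb1 and Hsp90aa1 are lowest in tdT+GFP+ libraries 1 and 2.

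Other immediate early genes shared the high tdT-GFP+ library of kidney 2 and likewise held no called gene. Of 34 such genes, 21 (61.8%) were highest there. With edgeR 0 of 34 passed and with DESeq2 0 of 34, while 1 was higher and 4 were lower at an unadjusted p under 0.05. Over all genes tested, 3.71% were higher and 6.97% lower at that threshold, and these shares apply to the lists below as well. The median log2 fold change of the 34 was -0.04, with 13 positive and 21 negative. Those with the smallest p were Klf10, a TGF-beta-induced Krüppel-like factor (-0.47, SE 0.13), the clock gene Per1 (0.38, SE 0.14), the small Maf factor Mafk (-0.40, SE 0.15) and the interferon regulatory factor Irf1 (-0.92, SE 0.35), with edgeR adjusted p of 0.414 to 0.451.

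Of 19 feedback inhibitors, which switch the response off, 10 (52.6%) were highest in the same library. Zfp36, whose protein marks AU-rich transcripts for decay, had 1969, 1490 and 1711 CPM in tdT+GFP+ and 1204, 2330 and 1310 CPM in tdT-GFP+ libraries. Dusp1, a MAP kinase phosphatase, had 1036, 817 and 993 CPM in tdT+GFP+ and 745, 1169 and 739 CPM in tdT-GFP+ libraries. Both were chosen after their values were seen, and both were highest in the tdT-GFP+ library of kidney 2. In edgeR 0 of 19 passed, with 1 higher and 3 lower at an unadjusted p under 0.05. Errfi1, an inhibitor of the EGF receptor, had a log2 fold change of 0.64 (SE 0.19, edgeR adjusted p = 0.415) and passed in DESeq2 with the kidney in the model (adjusted p = 0.0359). The phosphatase genes Dusp8 (-0.50) and Dusp5 (-0.42) and the antiproliferative Tob1 (-0.80) did not pass in any of the fits, with edgeR adjusted p of 0.414 to 0.438.

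The kinases and factors that act before transcription varied less. The median SD of log2 CPM within groups was 0.094 for 24 of them, and 4 of 24 (16.7%) were highest in the tdT-GFP+ library of kidney 2. Their median log2 fold change was 0.09, with 17 positive and 7 negative. The test called 0 of 24 in edgeR and 0 in DESeq2, with 2 higher and 0 lower at an unadjusted p under 0.05. Those 2 were Srf, the factor that binds the CArG box (0.26, SE 0.09, edgeR adjusted p = 0.438), and Mapk8, which encodes the Jun kinase JNK1 (0.29, SE 0.10, adjusted p = 0.440). Of 14 further bZIP partners of AP-1, 0 passed in either tool and 1 was lower at an unadjusted p under 0.05, Batf2 (-0.72, SE 0.24, edgeR adjusted p = 0.438).

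Heat shock genes, the chaperones made when proteins unfold, shared the low library of the immediate early genes more than the high one. Of 22, 15 (68.2%) were lowest in the tdT+GFP+ library of kidney 2, against 17.7% of all genes tested, as were 6 of the 10 immediate early genes. The highest library was that of tdT+GFP+ cells from kidney 3 for 11 and that of tdT-GFP+ cells from kidney 2 for 5 (22.7%). Pearson's r with the mean of the 10 genes over the 6 libraries had a median of 0.521, with 4 of 22 over 0.8, of which Hsf1, the heat shock transcription factor (named after its value was seen), stood at 0.979. For the feedback inhibitors the median was 0.571. Hspa1a, an inducible HSP70, had 901, 741 and 3113 CPM in tdT+GFP+ and 2912, 3071 and 2358 CPM in tdT-GFP+ libraries. Its near-identical copy Hspa1b had 888, 732 and 3258 CPM in tdT+GFP+ and 3171, 3128 and 2491 CPM in tdT-GFP+ libraries, and the split of reads between the pair is uncertain. Both were chosen after their values were seen. In both, tdT+GFP+ libraries 1 and 2 were low and tdT+GFP+ library 3 was the highest, whereas Fos and Jun were highest in the tdT-GFP+ library of kidney 2.

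Hspb1, a small heat shock protein, had 91.6, 89.1 and 284 CPM in tdT+GFP+ and 297, 254 and 293 CPM in tdT-GFP+ libraries. Its log2 fold change was -0.86 (SE 0.46, edgeR adjusted p = 0.509), and it passed in DESeq2 with the kidney in the model (adjusted p = 0.0466). Hsp90aa1, the inducible cytosolic HSP90, had 459, 421 and 940 CPM in tdT+GFP+ and 854, 904 and 806 CPM in tdT-GFP+ libraries. The median over the 22 genes was -0.11, with 7 positive and 15 negative, and edgeR called 0 of 22, with 0 at an unadjusted p under 0.05, as did DESeq2 without the kidney. Macrophage and red cell values also varied between libraries. Mrc1, a macrophage receptor and the marker of that list with the smallest p, had 139, 143 and 36.3 CPM in tdT+GFP+ and 43.9, 22.5 and 53.2 CPM in tdT-GFP+ libraries. The 16 macrophage markers together were also high in tdT-GFP+ library 3, at 1217 CPM against 1472 CPM in tdT+GFP+ library 1. The red cell gene Hbb-bs was at 0.244 and 0.580 CPM in tdT+GFP+ libraries 1 and 2 and at 4.78 to 7.74 CPM in the others. Hba-a1, also a red cell gene, was at 0.488 and 0.419 CPM there and at 2.86 to 3.88 CPM in the others. In tdT+GFP+ libraries 1 and 2 these genes rest on 8 to 18 reads. The part of macrophages and red cells in the heat shock values was not tested.

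**Figure D4:**
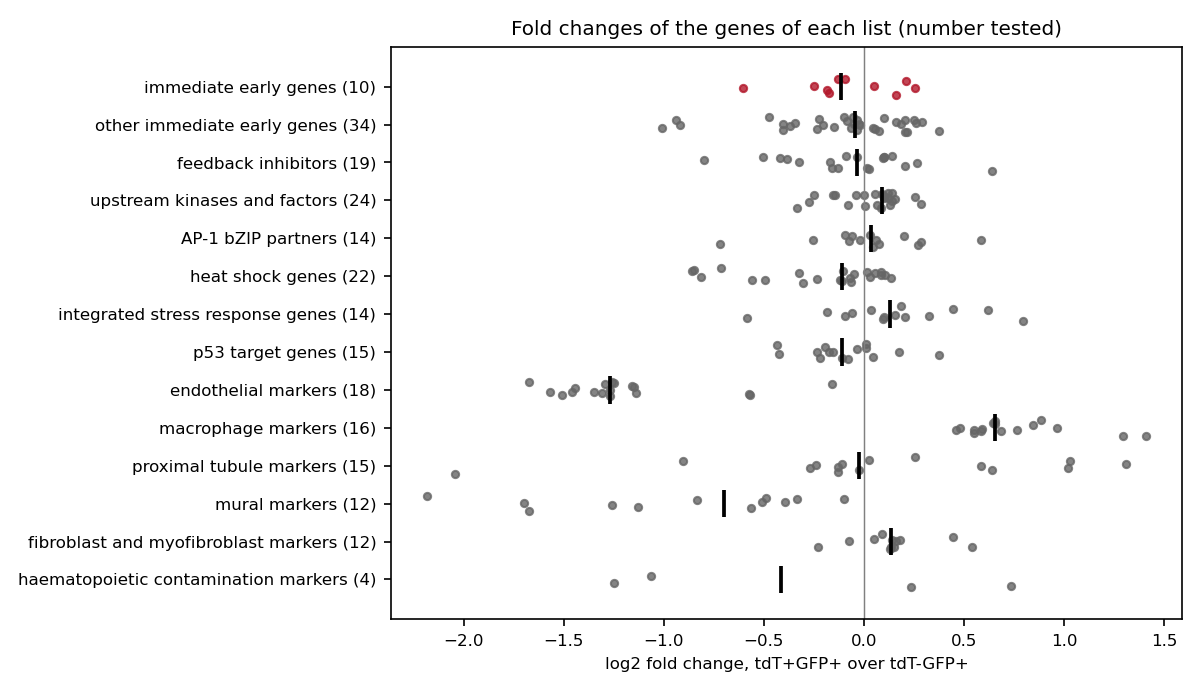
Log2 fold changes, tdT+GFP+ over tdT-GFP+, of every tested gene in each list (points), with the number tested after the list's name. The 10 immediate early genes spread around 0, from -0.60 to 0.25, while the endothelial and mural markers lie below 0.

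Genes of related stress responses did not pass in edgeR either. Of 14 genes of the integrated stress response, 0 passed in edgeR and 0 in DESeq2, 1 was higher and 0 were lower at an unadjusted p under 0.05, and the median log2 fold change was 0.13. Psat1, a serine synthesis enzyme, had 0.62 (SE 0.17, edgeR adjusted p = 0.409) and passed in DESeq2 with the kidney in the model (adjusted p = 0.0141). Asns, the asparagine synthetase gene, had 0.79 (SE 0.34, edgeR adjusted p = 0.468). Of 15 p53 target genes, 0 passed in edgeR and 0 in DESeq2, with 1 higher and 1 lower at an unadjusted p under 0.05. These were the exonuclease gene Aen (0.37, SE 0.11, edgeR adjusted p = 0.418) and the cell cycle inhibitor Cdkn1a (-0.43, SE 0.14, adjusted p = 0.438).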

How the data were processed

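Estimated counts (expected counts of RSEM, by the headers) were deposited by the authors as whole numbers, so rounding changed 0 values. For alignment and counting, STAR 2.6.1 and RSEM 1.2.28 stand in the submitters' processing notes beside bcl2fastq 2.20, R 3.6.3 and DESeq2 1.26.0, with mm10 and GRCh38 as builds of unstated role. Not given in the sources used here are the annotation release and whether counting used the strand of these strand-specific libraries. Left out were 92 ERCC rows, whose counts sum to 0. Totals were 26919514 to 33029933 counts in tdT+GFP+ and 25697348 to 31337198 in tdT-GFP+ libraries, and 3 counts equal 0.0915 to 0.114 CPM. No pair of libraries agreed within counting noise. The labels call the kidneys biological replicates but do not say whether they came from separate mice, so p-values measure only the spread between these samples.

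Differences were tested over all genes that passed filterByExpr by quasi-likelihood in edgeR 4.0.16 (TMM scaling, robust glmQLFit, then glmQLFTest; limma 3.58.1, R 4.3.3), with the group alone in the model and Benjamini-Hochberg adjustment over all genes at 0.05. DESeq2 1.42.0, limma-voom, other filters and scalings, the kidney as a replicate block and leaving out libraries were tried as alternatives. The scripts' model was tested on simulated data. The pairing comes from the labels, which give same-numbered libraries the same kidney. The deviations from the group means did not show it: same-numbered libraries correlated at 0.04, -0.58 and -0.30, and other pairs at up to 0.45. Blocked values stand beside some results, among them those of named genes where they add a call.

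The genes, the 13 further lists (222 genes) and the tests were chosen with earlier results of these data known. Named by rule are the 10 genes, up to 4 genes per list with the smallest unadjusted p and at least 1 CPM on average, and the 5 genes most like the mean of the set. Zfp36, Dusp1, Hspa1a, Hspa1b, Hsf1, Aqp1, Sox17, Vwf and Cldn5 were added after their values were seen. Axin2 was added as the gene behind the tdT label. TPM were computed here from the deposited counts and GENCODE M21 exon lengths (GRCm38), not from RSEM's effective lengths. Of 31815 gene identifiers, 31748 matched with versions left off. Centred log2 CPM used a prior count of 2.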

Additional observations from a re-analysis of the deposited data

How the results depend on the processing

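Under the 8 alternatives other than leaving libraries out, the 80 values of the 10 immediate early genes kept their direction and 0 passed the threshold. The smallest adjusted p of any of them in any setting was 0.123. The count of all genes past the threshold, 0 in edgeR and 0 in edgeR with the replicate block, was 303 in DESeq2 and 288 in DESeq2 with the replicate block, and among the genes of the lists it was 14 and 15. Among the named genes, the replicate block in DESeq2 added the calls of Errfi1, Psat1, Hspb1, Kap and Hbb-bs. With the block DESeq2 called 8 endothelial markers, against 12 without it.

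Leaving out 1 library, or both of 1 kidney, moved the median log2 fold change of the 10 genes between -0.32 (without replicate 3) and 0.25 (without replicate 2). The sign turned in some of these fits for Fos (-0.15 to 0.43), Fosb (-0.38 to 0.25), Jun (-0.38 to 0.19), Junb (-0.26 to 0.24), Egr1 (-0.40 to 0.19) and Nr4a1 (-0.021 to 0.46). It also turned for the tubule gene Slc5a12 (-0.066 to 2.15) and for Col1a1 (-0.017 to 0.30). Atf3 ran from -0.82 to -0.37 and kept its sign in all 9. The cause was not tested. The spread between libraries limits the precision of these genes, whose smallest count in any library was 3779.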
